A study of Mus musculus with 37 samples.

Results

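Lipid droplets are the triglyceride stores of the cell, and the genes described here encode 10 proteins that coat them, help them grow or control their breakdown. They are the perilipin genes Plin2, Plin3, Plin4 and Plin5, the CIDE genes Cidea, Cideb and Cidec, the lipase gene Pnpla2, and G0s2 and Hilpda, whose products inhibit that lipase. They were picked by gene symbol alone, and all of their probes were read in every group of sex and dose. These genes make up 10 of the 21450 gene symbols and 17 of the 30146 probes in the table of counts.

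A lipid droplet is a core of triglyceride and cholesteryl ester inside a layer of phospholipid. Perilipins sit on this layer and limit the access of lipases, CIDE proteins bring droplets together so that they exchange lipid and grow, and the adipose triglyceride lipase encoded by Pnpla2 starts the hydrolysis of stored triglyceride. In the liver, Plin2 is the main droplet coat of hepatocytes, and several of these genes are known targets of peroxisome proliferator-activated receptor alpha (PPARα), a nuclear receptor that responds to fatty acids.

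The livers came from adult F0 mice of the outbred, wild-type stock Crl:CD1(ICR) in a study of toxicity to reproduction and development. HFPO-DA, a short-chain per- and polyfluoroalkyl substance, was given daily by oral gavage as its ammonium salt. The doses were 0.1 mg/kg, 0.5 mg/kg and 5 mg/kg in deionized water, and the control mice of each sex received the vehicle at 0 mg/kg. Males received 84 to 85 doses, begun 70 days before mating, and females 53 to 65 doses, begun 14 days before mating and ended on lactation day 20 or 21. Males were younger than females when dosing began, so sex cannot be told apart from age, number of doses and lactation. Fixed, paraffin-embedded sections were scraped and assayed by TempO-Seq, in which a pair of short probes is ligated on its target RNA and the ligated product is counted. In order of dose, 5, 5, 5 and 4 males and 5, 5, 4 and 4 females were in the table. Each library was made from 1 mouse, and mice are numbered within their group.

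Expression is given as CPM, the counts of a probe scaled to a common library size after TMM normalization. Probes differ in efficiency, so CPM was compared between mice and not between probes or genes. Of the 17 probes, 14 passed the filter on low counts, and all 10 genes had at least 1 such probe. Cidec_30722, Cidec_63309 and Cidec_65177 did not pass and were not tested. Total counts ranged from 2101495 to 10548222 in males and from 7952605 to 13878254 in females. The 4 libraries under 5000000 counts were all male, and 2 of them were mouse 1 (4147445 counts) and mouse 3 (2101495 counts) at 5 mg/kg. A count of 0 allows a level of up to 3 counts, which was 1.13 CPM in mouse 3, 0.707 in mouse 1, 0.331 in mouse 2 and 0.464 in mouse 4 at 5 mg/kg, for counting error only. The tissue label was checked on markers, and the 5 hepatocyte genes in the table (Ttr, Alb and Cps1 among them) were counted in every group.

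A dose group was set against the vehicle group of its own sex with edgeR's quasi-likelihood test, whose p-values were adjusted by Benjamini and Hochberg's method over the 18570 probes that passed the filter, and a probe was called at an adjusted p under 0.10. With 5 mg/kg, 6 of the 14 probes rose in males, against 4.21% of all probes, and 0 fell, against 8.49%. These 6 were the 3 probes of Plin2, G0s2_29985, Hilpda_55937 and Cidea_59014. Cidea_59014 passed the filter only through its counts in these same 4 males, so its call is no support for a change, and without it 5 of 13 probes were called. In females, 3 of the 14 probes rose at 5 mg/kg, against 2.26% of all probes, and they were Plin2_78909, Plin2_66039 and Pnpla2_69002. The median log2 fold change over the 12 probes with more than 3 counts in both groups, Cidea not among them, was 1.48 in either sex, beside -0.12 in males and -0.01 in females over all probes. In males none of these 12 lay between 0.66 (Plin5_57760) and 2.30 (Plin2_66039), so the median there is the middle of a gap. Since sections are mixtures of cells, more RNA per cell cannot be told apart from more cells of a type.

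**Figure D1:**
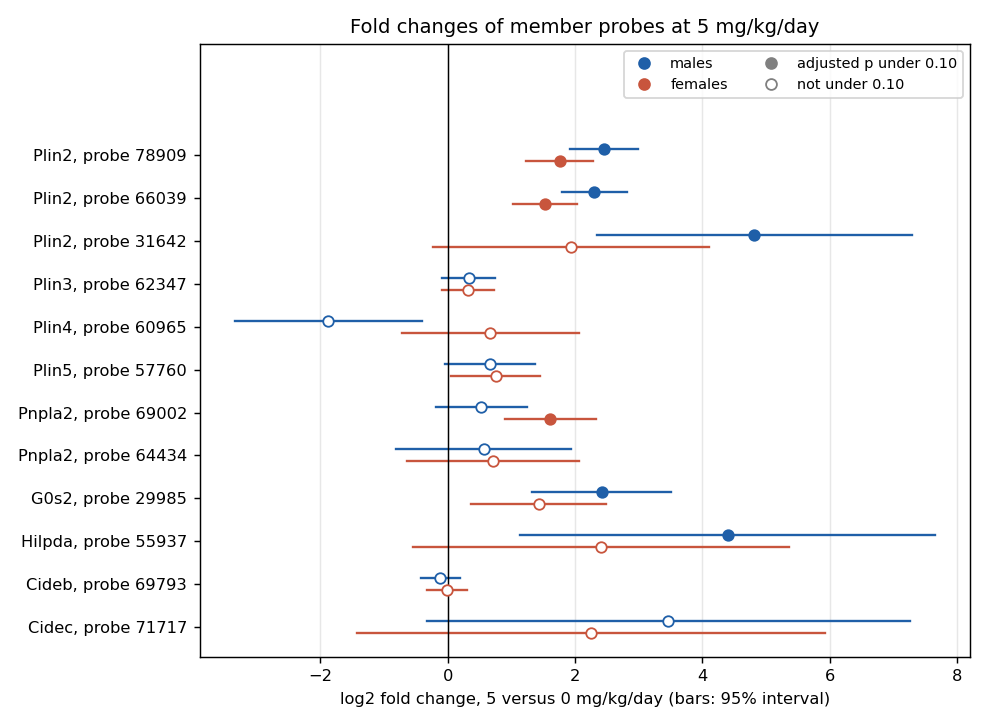
Log2 fold change with its 95% interval (x axis) at 5 mg/kg against the vehicle, for the 12 probes with more than 3 counts in both groups (y axis), males in blue and females in red, with filled points where the adjusted p was under 0.10. Plin2_78909 and Plin2_66039 lie right of 0 in both sexes with filled points, while Cideb_69793 lies at -0.12 in males and -0.01 in females.

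Plin2 encodes the perilipin that coats droplets in hepatocytes. The CPM of Plin2_78909 was 1047, 1006, 679.5, 1399 and 794 in the control males. At 5 mg/kg it was 4419.9, 5574, 4827 and 6751, so every dosed male lay above every control. The log2 fold change was 2.45 ± 0.27 (SE), or 5.47-fold (edgeR's quasi-likelihood test, adjusted p = 6.4e-09). In the control females the same probe gave 1189.8, 875, 993, 580.3 and 540.02 CPM. Females at 5 mg/kg gave 2609, 3123, 3653 and 1899 CPM, again with no overlap. Their log2 fold change was 1.76 ± 0.26 (SE), or 3.38-fold (edgeR's quasi-likelihood test, adjusted p = 8.18e-06).

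The other abundant probe of the gene, Plin2_66039, gave 106, 89.8, 59.5, 112 and 61.2 CPM in control males and 316, 431, 415 and 532 at 5 mg/kg. In females it gave 127, 104, 116, 69.1 and 72.7 CPM in controls and 247, 307, 363 and 208 at 5 mg/kg. Groups did not overlap in either sex, and both probes of the gene moved the same way in the same mice. Log2 fold changes were 2.30 ± 0.25 (SE) in males (edgeR's quasi-likelihood test, adjusted p = 8.58e-09) and 1.53 ± 0.25 (SE) in females (adjusted p = 4.07e-05). The calls on both probes held with any 1 of the 37 mice left out.

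Plin2_31642 was near the limit of counting. It gave 1.68, 0.389, 0, 0 and 0 CPM in control males and 12.3, 5.08, 24.4 and 7.88 at 5 mg/kg, with no overlap (log2 fold change 4.82 ± 1.22 (SE), edgeR's quasi-likelihood test, adjusted p = 0.00805). With 1 mouse left out the fold change ranged from 4.26 to 6.75, the highest without control mouse 1. In females the controls gave 2.1, 2.25, 2.43, 2.46 and 0 CPM and the mice at 5 mg/kg 2.1, 12.2, 7.99 and 6.13, which overlapped, and the change of 1.94 ± 1.08 (SE) was not called (adjusted p = 0.515).

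The level of Plin2 at the lower doses was read in both sexes. In males the mean of Plin2_78909 was 985 ± 276 CPM (SD, n = 5) in controls, 1219 ± 429 (SD, n = 5) at 0.1 mg/kg, 1698 ± 554 (SD, n = 5) at 0.5 mg/kg and 5393 ± 1024 (SD, n = 4) at 5 mg/kg. Neighbouring groups up to 0.5 mg/kg overlapped, and their means differed by less than the larger of their SDs. Females did not show that order, with 836 ± 276 CPM (SD, n = 5) in controls, 584 ± 68.7 (SD, n = 5) at 0.1 mg/kg, 948.5 ± 317 (SD, n = 4) at 0.5 mg/kg and 2821 ± 748 (SD, n = 4) at 5 mg/kg. All females at 0.1 mg/kg lay below all those at 0.5 mg/kg on this probe, while both groups overlapped the controls.

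At 0.5 mg/kg, 1 of the 14 probes rose in males, against 0.382% of all probes, and it was Plin2_66039. Its CPM was 132, 174, 239, 199.7 and 109, and 4 of these 5 mice lay above all controls. The log2 fold change was 0.99 ± 0.24 (SE; edgeR's quasi-likelihood test, adjusted p = 0.0385). It was not called without mouse 3 (adjusted p = 0.142) or mouse 4 (0.124) at 0.5 mg/kg, or without mouse 3 (0.130) or mouse 5 (0.124) of the controls. Plin2_78909 gave 1417, 1729.8, 2218, 2211 and 913 CPM at that dose, with a log2 fold change of 0.79 ± 0.25 (SE) that was not called (adjusted p = 0.185), although DESeq2 called it (adjusted p = 0.0435), as did edgeR without a filter (0.0358) and without mouse 5 at 0.5 mg/kg (0.0827). No probe of the 14 was called in females at 0.5 mg/kg by edgeR, against 0.113% of all probes. By edgeR, 1 had an unadjusted p under 0.05, beside 804 of the 18570 probes. DESeq2 called none either, but it gave no adjusted p for Plin2_31642, Hilpda_55937, Cidea_59014, Plin4_60965, Pnpla2_64434, Pnpla2_69002, Cidec_71717 and G0s2_80846, so it could not call these.

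With 0.1 mg/kg, 0 of the 14 probes were called by edgeR's quasi-likelihood test in males, against 0% of all probes. Unadjusted p was under 0.05 for 1325 of the 18570 probes and for 4 of the 14. These were Plin2_31642, Plin2_66039 and Hilpda_55937, higher, and Pnpla2_64434, lower. Females likewise had 0 of 14 called, against 0% of all probes. Unadjusted p was under 0.05 for 442 of the 18570 probes and for 5 of the 14. Of these 5, Plin4_60965, Plin5_57760 and G0s2_80846 were higher than in controls, and Plin2_78909 and Cidec_71717 were lower. DESeq2 called 0 in either sex as well, but gave no adjusted p for Cidea_59014 and G0s2_80846 in males. Raising the dose from 0.5 to 5 mg/kg was compared directly. In males 5 of the 14 probes, Cidea_59014 among them, were higher at 5 mg/kg, against 3.16% of all probes, and 1 was lower, against 5.57%. Females had 2 of 14 higher, against 0.635%, and both were probes of Plin2. Between these doses Plin2_78909 differed by 1.67 ± 0.26 (SE) on the log2 scale in males (edgeR's quasi-likelihood test, adjusted p = 3.5e-05) and by 1.57 ± 0.28 (SE) in females (adjusted p = 5.81e-04).

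**Figure D2:**
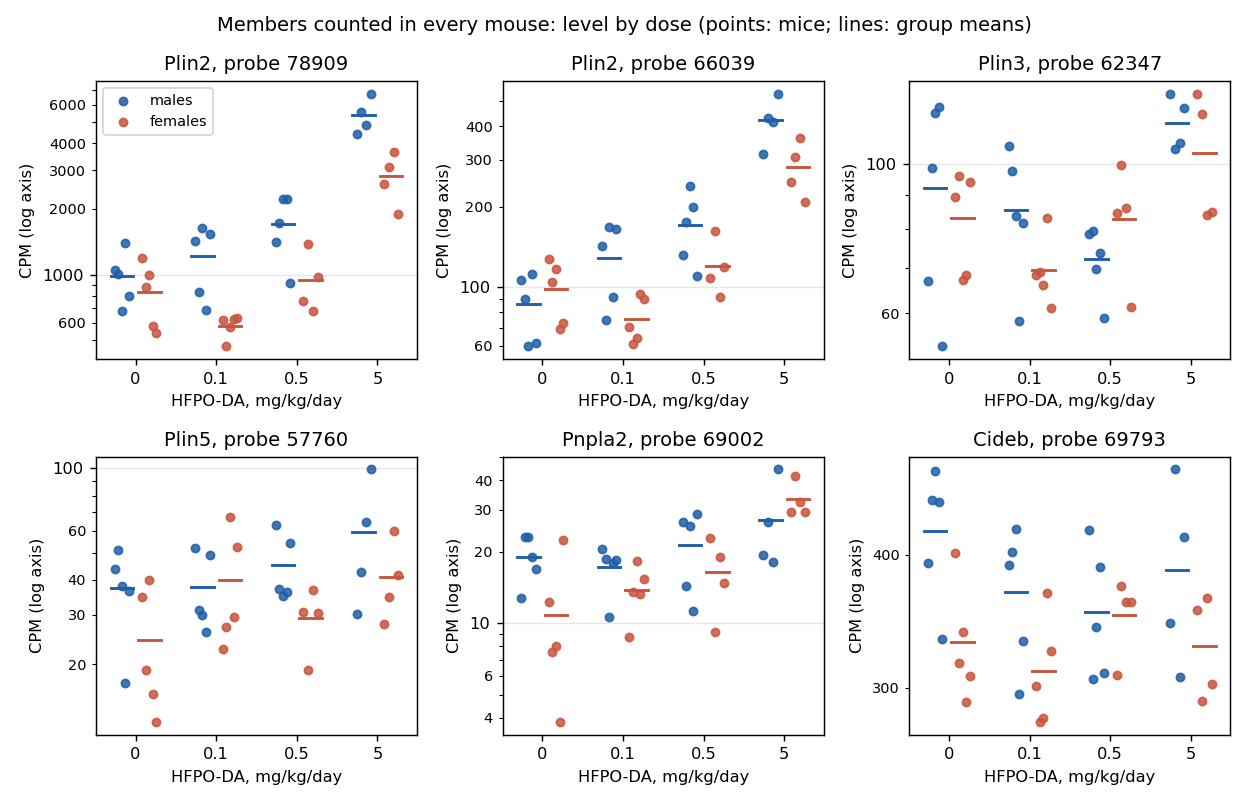
CPM (y axis, log scale) of 6 probes counted in every mouse by dose (x axis, mg/kg per day), with a point per mouse and a line through the group means, males in blue and females in red. Both Plin2 probes stand higher at 5 mg/kg than in any control of the same sex, and Cideb_69793 stays between 278 and 481 CPM in all 8 groups.

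Since Plin2 was called in both sexes and Pnpla2 in females, the promoter of each is shown. Each window holds the 250 bases before the gene's first base (RefSeq, build GRCm38.p6, read along the gene's strand), at chr4:86670060-86670309 on the minus strand for Plin2 and chr7:141454938-141455187 on the plus strand for Pnpla2. No Pnpla2 transcript of the GENCODE annotation contained the bases that follow this start, so the window rests on RefSeq alone. Capitals mark a match to AGGTCA, the half-site of many nuclear receptors, PPARα among them, which reads TGACCT when it lies on the opposite strand.
Plin2: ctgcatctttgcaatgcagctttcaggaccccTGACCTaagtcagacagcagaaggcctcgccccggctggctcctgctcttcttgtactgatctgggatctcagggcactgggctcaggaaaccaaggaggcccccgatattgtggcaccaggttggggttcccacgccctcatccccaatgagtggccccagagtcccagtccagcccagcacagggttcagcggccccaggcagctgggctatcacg
Pnpla2: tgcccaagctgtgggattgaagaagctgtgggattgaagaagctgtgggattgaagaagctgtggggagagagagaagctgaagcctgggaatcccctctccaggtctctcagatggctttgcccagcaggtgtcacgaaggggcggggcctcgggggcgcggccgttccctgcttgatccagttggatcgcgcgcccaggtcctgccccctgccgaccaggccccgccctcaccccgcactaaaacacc

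RefSeq gave a window for 9 of the 10 genes, with 12 start sites in all. Searched on both strands, AGGTCA was found in the windows of Plin2, at 218 to 213 bases before the start on the strand opposite to the gene, and of Plin5, at 170 to 165 bases before its first listed start on the gene's own strand. It was found in 14.0% of the 32851 windows of the same length over all genes. The direct repeat AGGTCANAGGTCA, which contains that half-site in 2 copies, was found in 0.0335% of all windows and in none of these 12. A match is a string of letters and not a measured binding site, and the window leaves out sites farther away.

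Plin3, Plin4 and Plin5 encode the other perilipins, of which Plin3 is found in most tissues, Plin4 mainly in fat and muscle, and Plin5 in tissues that burn fat, where it holds droplets close to mitochondria. None of them was called at 5 mg/kg against the controls by edgeR in either sex. Plin3_62347 gave 67.1, 98.7, 119, 121 and 53.6 CPM in control males and 127, 105, 108 and 121 at 5 mg/kg, which overlapped (0.33 ± 0.20 (SE) on the log2 scale, adjusted p = 0.350). At 0.5 mg/kg the males gave 78.8, 79.6, 69.8, 73.7 and 59.0 CPM, all below the males at 5 mg/kg, and this difference between the doses passed the test (0.68 ± 0.20 (SE), edgeR's quasi-likelihood test, adjusted p = 0.0420). It was not called without mouse 1 at 5 mg/kg (adjusted p = 0.130), without mouse 5 at 0.5 mg/kg (0.124), without the libraries under 5000000 counts (0.169) or with each sex fitted apart (0.190). Females ranged from 67.3 to 96.0 CPM in controls and from 84.0 to 127 at 5 mg/kg (0.32 ± 0.20 (SE), adjusted p = 0.645).

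Plin4_60965 was the only one of the 14 probes called lower at 5 than at 0.5 mg/kg in males. It gave 9.61, 33.9, 7.36, 6.25 and 17.9 CPM in control males, 26.4, 18.5, 5.55, 9.34 and 25.3 at 0.5 mg/kg, and 0, 5.74, 0 and 9.58 at 5 mg/kg. The zeros were in mouse 1 and mouse 3, which had the shallowest libraries of their group. A count of 0 allows up to 0.707 CPM in mouse 1 and 1.13 in mouse 3, for counting error only. The lowest control male was at 6.25 CPM. At 5 mg/kg the other 2 mice overlapped the groups at lower doses. The difference between 5 and 0.5 mg/kg was called (fell by 2.05 on the log2 scale, SE 0.74, edgeR's quasi-likelihood test, adjusted p = 0.0955), and that between 5 and 0 mg/kg was not (fell by 1.87, SE 0.73, adjusted p = 0.106), while DESeq2 called the latter (adjusted p = 0.058). Without the 4 libraries under 5000000 counts, these differences were -1.15 (adjusted p = 0.420) and -1.01 (adjusted p = 0.422). That fit drops mouse 1 and mouse 3 at 5 mg/kg, the 2 with no count, so it is no check of either difference. The call between 5 and 0.5 mg/kg was lost in 11 of 37 fits with 1 mouse left out, with the largest adjusted p, 0.198, without mouse 3 at 5 mg/kg, and also with a robust fit (0.118) and with each sex fitted apart (0.229). That between 5 and 0 mg/kg became a call in 13 of these 37 fits. In females Plin4_60965 gave 5.76, 1.23, 4.59, 7.08 and 1.75 CPM in controls and 4.90, 5.75, 6.94 and 8.34 at 5 mg/kg, with 0.67 ± 0.69 (SE) on the log2 scale (adjusted p = 0.933).

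Plin5_57760 ranged from 17.1 to 51.1 CPM in control males and from 30.2 to 99.2 at 5 mg/kg, a difference of 0.66 ± 0.35 (SE) on the log2 scale (edgeR's quasi-likelihood test, adjusted p = 0.248). Without mouse 4 at 5 mg/kg, the highest, it was 0.27 (adjusted p = 0.709). In females it ranged from 12.4 to 40.1 CPM in controls and from 27.9 to 59.9 at 5 mg/kg, a difference of 0.75 ± 0.35 (SE; adjusted p = 0.352). The 95% intervals of these differences ran from -0.04 to 1.37 in males and from 0.05 to 1.45 in females, and they are not adjusted for the number of probes tested.

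Pnpla2 encodes the lipase itself. Pnpla2_69002 gave 12.3, 7.58, 8.05, 3.84 and 22.4 CPM in control females and 29.4, 41.7, 32.4 and 29.3 at 5 mg/kg, so all 4 dosed females were above all controls. The log2 fold change was 1.61 ± 0.35 (SE), or 3.06-fold (edgeR's quasi-likelihood test, adjusted p = 0.00284), and the call held with any 1 of the 37 mice left out. Females at 0.1 mg/kg gave 8.71, 13.5, 18.2, 13.3 and 15.4 CPM and those at 0.5 mg/kg 22.8, 9.21, 19 and 14.7, within the range of the controls but for the highest at 0.5 mg/kg. In males the controls gave 12.7, 23.1, 23, 19 and 16.9 CPM and the mice at 5 mg/kg 19.3, 26.7, 18 and 44.3, which overlapped (0.52 ± 0.35 (SE), adjusted p = 0.398). The second probe, Pnpla2_64434, lay between 1.74 and 14.1 CPM in control males and between 4.79 and 16.9 at 5 mg/kg, and between 2.90 and 12.6 CPM in control females and 9.57 and 16.6 at 5 mg/kg. Its differences of 0.56 ± 0.68 (SE) in males and 0.71 ± 0.67 (SE) in females were not called (adjusted p = 0.705 and 0.905), so the 2 probes of the gene did not both pass in females.

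G0s2 encodes an inhibitor that binds this lipase. G0s2_29985 gave 19.5, 9.08, 22.9, 13.8 and 15.1 CPM in control males and 103, 109, 44.3 and 85.6 at 5 mg/kg, and the lowest dosed male lay above the highest control. The log2 fold change was 2.42 ± 0.54 (SE), or 5.34-fold (edgeR's quasi-likelihood test, adjusted p = 0.00228), and the call held with any 1 of the 37 mice left out. Males at 0.1 mg/kg gave 47.3, 58.8, 15.5, 0.238 and 18.8 CPM, with the lowest value in mouse 4, a library of 4012015 counts, and males at 0.5 mg/kg gave 39.5, 15.5, 26.8, 40.9 and 9.37. Between 5 and 0.5 mg/kg the difference in males was 1.69 ± 0.53 (SE; edgeR's quasi-likelihood test, adjusted p = 0.0536), and it was not called without mouse 1 (adjusted p = 0.112) or mouse 2 (0.106) at 5 mg/kg, without mouse 2 (0.111) or mouse 5 (0.127) at 0.5 mg/kg, with a robust fit (0.105) or with each sex fitted apart (0.142).

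In females, G0s2_29985 gave 40.9, 30.6, 23.4, 21.3 and 10.7 CPM in controls and 44.7, 33.3, 118 and 76.8 at 5 mg/kg. Only mouse 2 at 5 mg/kg lay within the range of the controls. The difference of 1.43 ± 0.53 (SE) was not called by edgeR (adjusted p = 0.164), but it was called by DESeq2 (0.074), without a filter on low counts (0.0366), with each sex fitted apart (0.014), without the libraries under 5000000 counts (0.0314) and without mouse 4 at 0.1 mg/kg of the males (0.0421). The second probe, G0s2_80846, had counts in 1 control male (0.259 CPM) and 1 male at 5 mg/kg (0.927 CPM). It had none in control females and 3.07 and 1.28 CPM in 2 of the 4 females at 5 mg/kg, which is at least 18.9-fold higher than the 3 counts over the control group that a count of 0 allows, and it was not called (adjusted p = 0.124) except with each sex fitted apart (0.0893).

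Hilpda, a gene induced by hypoxia and fatty acids, encodes another inhibitor of the same lipase. Hilpda_55937 gave 0, 0.519, 0, 0 and 0 CPM in control males and 0, 4.96, 0 and 4.79 at 5 mg/kg. Both zeros at 5 mg/kg were in the 2 shallowest libraries of the group, mouse 1 and mouse 3. A 0 of Hilpda_55937 there allows up to 0.707 CPM and 1.13 CPM, for counting error only. Its call in males (log2 fold change 4.40 ± 1.62 (SE), edgeR's quasi-likelihood test, adjusted p = 0.0840) thus rests on 2 mice at 5 mg/kg, and their range overlapped that of the controls. The call was lost without mouse 2 (adjusted p = 0.159) or mouse 4 (0.15) at 5 mg/kg, without any of control mice 1, 3, 4 and 5 (0.141 to 0.15), with each sex fitted apart (0.256) and without a filter on low counts (0.122). It was kept without the libraries under 5000000 counts (0.0325). That fit drops mouse 1 and mouse 3 at 5 mg/kg, the 2 with no count, so it is no check of the call. Without control mouse 2, the one control with counts, the log2 fold change was 7.45. Lower doses gave up to 4.05 CPM at 0.1 mg/kg and up to 2.87 at 0.5 mg/kg in males. In females it gave 0, 0.922, 0, 0.393 and 1.08 CPM in controls and 2.33, 1.82, 2.55 and 3.74 at 5 mg/kg, so the groups did not overlap although the difference of 2.41 ± 1.46 (SE) was not called (adjusted p = 0.608).

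Groups that did not overlap, in either direction, made up 7.58% of all probes in males at 5 mg/kg and 8.71% in females. Of the 14 probes, 5 lay wholly above the controls in males, and they were the 3 probes of Plin2, G0s2_29985 and Cidea_59014, of which the last passed the filter only through this group. In females 4 did, Plin2_78909, Plin2_66039, Pnpla2_69002 and Hilpda_55937. None lay wholly below.

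**Figure D3:**
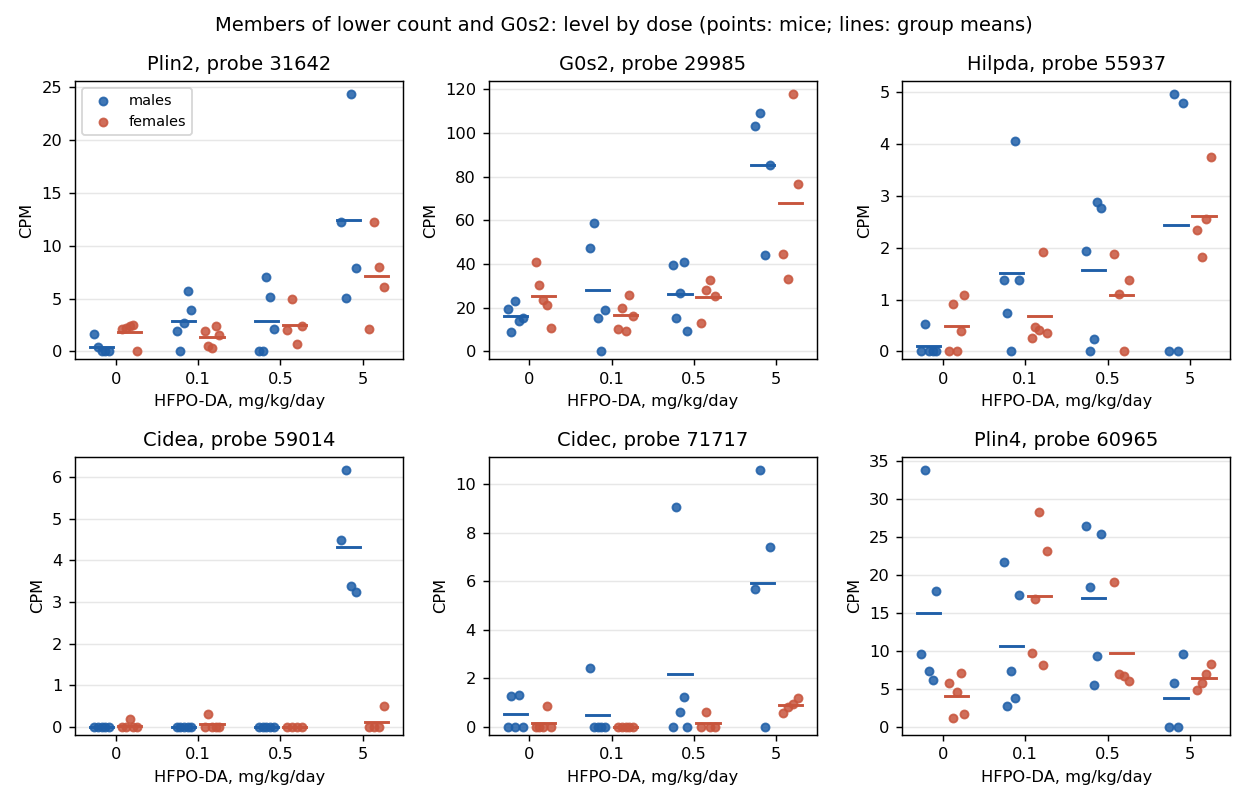
CPM (y axis, linear) of 6 probes by dose (x axis, mg/kg per day), with a point per mouse and a line through the group means, males in blue and females in red. All but G0s2_29985 had no count in some mice. Cidea_59014 is above 0 in the 4 males at 5 mg/kg and in no other male, while Plin4_60965 is at 0 in 2 of these 4 males.

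Cidea and Cidec encode droplet proteins that are typical of fat tissue and are known to appear in fatty liver, and Cideb is the CIDE gene of normal hepatocytes, where it also helps load lipid onto very low density lipoprotein. Cidea_59014 had no count in any male below 5 mg/kg. At 5 mg/kg it gave 4.48, 6.18, 3.38 and 3.24 CPM, 105 counts over the 4 mice, and these were the only mice in which it passed the filter's level of 1.05 CPM. Set against the 3 counts that a count of 0 over the group allows, the mean was at least 54.8-fold higher than in controls and at least 47.8-fold higher than at 0.5 mg/kg. Because the probe was tested only through being high in this group, its calls by edgeR are not read as a test, and DESeq2 did not call it (adjusted p = 0.351 against controls and 0.396 against 0.5 mg/kg). By edgeR's quasi-likelihood test, the call against 0.5 mg/kg was also lost with each sex fitted apart (adjusted p = 0.120). It was lost as well without the libraries under 5000000 counts (0.131). Among females, 1 control (0.187 CPM), 1 mouse at 0.1 mg/kg (0.312 CPM) and 1 at 5 mg/kg (0.510 CPM) had counts.

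Cidec was read by 4 probes, of which Cidec_71717 passed the filter on low counts. It gave 0, 1.3, 0, 1.33 and 0 CPM in control males and 5.66, 10.6, 0 and 7.42 at 5 mg/kg. The zero at 5 mg/kg was in mouse 3, the shallowest library of all, where it allows up to 1.13 CPM, for counting error only. The difference of 3.47 ± 1.88 (SE) on the log2 scale was not called (edgeR's quasi-likelihood test, adjusted p = 0.267). At 0.5 mg/kg, mouse 2 of the males also reached 9.05 CPM, in a library of 2608954 counts. The 3 probes that were not tested had counts in males at 5 mg/kg too. Cidec_30722 gave 0, 2.98, 0 and 1.39 CPM, Cidec_63309 gave 10.1, 3.75, 0 and 0, and Cidec_65177 gave 0.472, 2.76, 0 and 1.55. Against the control males, all at 0, the means of Cidec_63309 and Cidec_65177 were at least 44.1-fold and at least 15.2-fold higher. With the 4 probes summed, Cidec gave 16.3, 20.1, 0 and 10.4 CPM in males at 5 mg/kg and 0, 1.69, 0, 1.33 and 0 in controls, and mouse 3 was at 0 on each of them. Females at 5 mg/kg gave 0.583, 0.821, 0.966 and 1.87 CPM on that sum, and all other females were at or below 0.885.

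Cideb_69793 gave 392, 449.9, 479.7, 448 and 333 CPM in control males and 345, 481, 307 and 416 at 5 mg/kg, with the groups fully mixed. Its log2 difference was -0.12 ± 0.15 (SE; edgeR's quasi-likelihood test, adjusted p = 0.728), with a 95% interval from -0.43 to 0.19. In females the controls gave 401, 316, 339, 291 and 307 CPM and the mice at 5 mg/kg 355, 291, 364 and 302, a difference of -0.01 ± 0.15 (SE), with an interval from -0.32 to 0.30 (adjusted p = 1). The data thus bound a change of Cideb within these intervals, which are the narrowest among the 14 probes.

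Members were also compared in pairs within each mouse as a log2 ratio of counts, each with 0.5 added. The ratio needs no normalization, but where a count is 0 or small the 0.5 makes it depend on depth. The ratio of G0s2, the inhibitor, to Pnpla2, the lipase, was 0.61, -1.34, -0.01, -0.46 and -0.17 in control males and 2.41, 2.03, 1.29 and 0.95 at 5 mg/kg, with no overlap. The means were -0.27 ± 0.71 (SD, n = 5) and 1.67 ± 0.67 (SD, n = 4), a difference of 1.94 (two-sided exact permutation test, p = 0.0159, adjusted p = 0.190 over 12 ratio tests). It therefore did not pass the adjusted threshold, and 4 mice against 5 cannot go below an exact p of 0.00794. In females the ratio was 1.73, 2.01, 1.53, 2.46 and -1.06 in controls and 0.60, -0.32, 1.86 and 1.39 at 5 mg/kg, a difference of -0.45 (two-sided exact permutation test, p = 0.563, adjusted p = 0.751). The low control was mouse 5, which had the highest Pnpla2 level of its group.

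The ratio of Cidec to Cideb differed by 3.91 between males at 5 mg/kg and controls (two-sided exact permutation test, p = 0.0476, adjusted p = 0.190) and by 3.41 in females (two-sided exact permutation test, p = 0.0397, adjusted p = 0.190). Most controls had no count of Cidec, so these sizes rest on the 0.5 added to each count and on depth. Male mouse 3 at 5 mg/kg, a shallow library with no Cidec count, had a ratio of -10.68. Control males 1, 3 and 5, also with no count, had -12.67, -12.81 and -12.19. No ratio at 0.1 or 0.5 mg/kg had an unadjusted p under 0.05 in either sex.

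**Figure D4:**
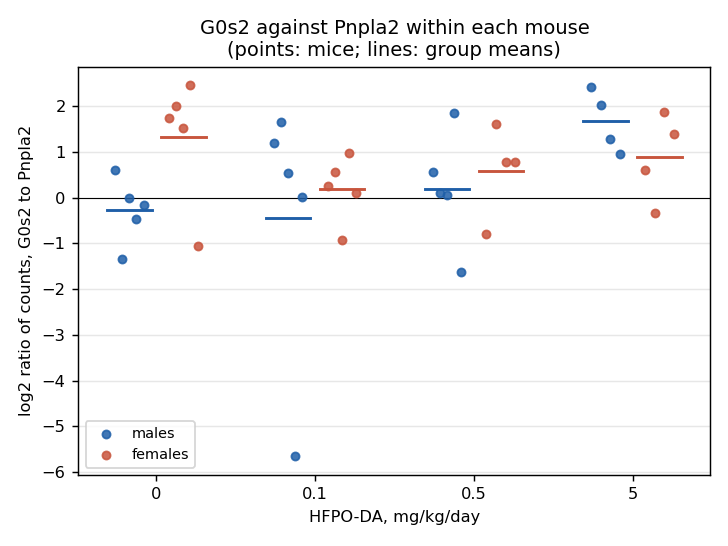
Log2 ratio of G0s2 to Pnpla2 counts (y axis) in each mouse by dose (x axis, mg/kg per day), males on the left and females on the right, with bars at the group means. The 4 males at 5 mg/kg lie between 0.95 and 2.41, above all control males, and the females at 5 mg/kg lie within the range of their controls.

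Whether the response to the dose differed between the sexes was tested directly as an interaction. At 5 mg/kg 0 of the 14 probes were called by edgeR's quasi-likelihood test, against 0.63% of all probes. An unadjusted p under 0.05 was seen for 1985 of the 18570 probes and for 4 of the 14. These were Plin4_60965 (-2.54 ± 0.996 (SE), adjusted p = 0.360), Cidea_59014, Plin2_66039 (0.78 ± 0.35 (SE), adjusted p = 0.413) and Pnpla2_69002 (-1.09 ± 0.50 (SE), adjusted p = 0.427). The calls of Pnpla2 in females alone and of G0s2 in males alone were thus not shown to be specific to a sex, and for G0s2_29985 the difference was 0.99 ± 0.75 (SE; adjusted p = 0.732). For Plin2_78909 the fold in males exceeded that in females by 0.70 ± 0.37 (SE) on the log2 scale (adjusted p = 0.504). At 0.1 and 0.5 mg/kg 0 of 14 were called, against 0% and 0.0108% of all probes. Unadjusted p was under 0.05 for 5 and 1 of them, beside 829 and 952 of the 18570 probes. DESeq2 called 0 at every dose, but gave no adjusted p for Cidea_59014 and G0s2_80846 at 5 mg/kg.

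The vehicle controls of the sexes were compared as the baseline, and 0 of the 14 probes were called by edgeR's quasi-likelihood test, against 2.6% of all probes. Unadjusted p under 0.05 was seen for 2029 of the 18570 probes and for 3 of the 14. Each of the 3 was higher in males, Plin4_60965 (1.88 ± 0.67 (SE) on the log2 scale, adjusted p = 0.187), Cideb_69793 (0.35 ± 0.14 (SE), adjusted p = 0.304) and Pnpla2_69002 (0.80 ± 0.34 (SE), adjusted p = 0.310). DESeq2 called 2 of these, Plin4_60965 and Cideb_69793.

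Other genes of the droplet surface and its turnover were read from a list of 21, of which 20 had probes that passed the filter (28 probes). With 5 mg/kg, 5 of the 20 genes rose and 3 fell in males, and 4 rose and 0 fell in females. By probe, 8 of the 28 rose in males, beside 4.21% of all probes, and 4 fell, beside 8.49%, and 6 of the 28 rose in females, beside 2.26%. The median log2 fold change of the 28 probes was 0.40 in males and 0.37 in females. Hsd17b11, a droplet-bound short-chain dehydrogenase, rose on both probes in both sexes, with Hsd17b11_31408 at 597 ± 134 CPM (SD, n = 5) in control males and 5389 ± 772 (SD, n = 4) at 5 mg/kg, and 479 ± 61.5 (SD, n = 5) and 3928 ± 771 (SD, n = 4) in females. Its log2 fold changes were 3.17 ± 0.20 (SE) in males (edgeR's quasi-likelihood test, adjusted p = 9.77e-16) and 3.04 ± 0.19 (SE) in females (adjusted p = 4.02e-15). Fitm1 and Fitm2 encode membrane proteins that help droplets leave the endoplasmic reticulum. Fitm1_58794 rose by 3.39 ± 0.50 (SE) in females (adjusted p = 8.63e-06), from 1.78 to 18.7 CPM, and by 1.27 ± 0.47 (SE) in males (adjusted p = 0.0861), from 9.03 to 21.9 CPM. Control males had more Fitm1 than control females, by 2.34 ± 0.48 (SE) on the log2 scale (adjusted p = 0.00191). Fitm2 rose in females by 1.04 ± 0.33 (SE; adjusted p = 0.0699).

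Among genes of lipid breakdown, Mgll encodes the monoglyceride lipase that completes triglyceride hydrolysis. Mgll_75873 rose from 77.3 to 432 CPM in males (log2 fold change 2.48 ± 0.20 (SE), edgeR's quasi-likelihood test, adjusted p = 9.32e-12) and from 72.1 to 169 CPM in females (1.23 ± 0.20 (SE), adjusted p = 3.79e-05). It was the only probe of the list whose response at 5 mg/kg differed between the sexes, by 1.25 ± 0.28 (SE; adjusted p = 0.0256). Abhd5, the co-activator of the Pnpla2 lipase, rose in males on both probes, by 0.79 ± 0.24 (SE) on Abhd5_77113 (adjusted p = 0.0288) and by 0.93 ± 0.32 (SE) on Abhd5_64211 (adjusted p = 0.0660). In females Abhd5_77113 differed by 0.63 ± 0.23 (SE; adjusted p = 0.172). Mettl7b, a droplet-associated methyltransferase, rose in males by 0.77 ± 0.22 (SE; adjusted p = 0.0190). Dgat2, which makes the triglyceride that fills the droplet, fell in males by 1.21 on Dgat2_68788 (SE 0.24, adjusted p = 4.24e-04), from 472 to 203 CPM, and by 1.40 on Dgat2_79486 (SE 0.31, adjusted p = 0.00215).

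The other genes that fell in males were Faf2, on 1 of 3 probes (Faf2_75338, by 1.38, SE 0.49, edgeR's quasi-likelihood test, adjusted p = 0.0763), and Lipe, the hormone-sensitive lipase, which had a mean of 0.743 CPM in controls and no count at 5 mg/kg (adjusted p = 0.0785). Lipe was tested on 1 of its 3 probes. Its control mean lay below the 1.13 CPM that a count of 0 allows in mouse 3 at 5 mg/kg. It lay above the 0.707, 0.331 and 0.464 CPM allowed in mouse 1, mouse 2 and mouse 4. At 0.5 mg/kg, none of the 20 genes was called in females, beside 0.113% of all probes. In males, 5 of the 28 probes rose at that dose, beside 0.382% of all probes. By gene, 4 of the 20 rose and 0 fell in males. They were Hsd17b11 (1.59 ± 0.18 (SE), adjusted p = 3.37e-07), Mgll (0.82 ± 0.19 (SE), adjusted p = 0.0305), Spg20, which encodes spartin (0.96 ± 0.24 (SE), adjusted p = 0.0659) and Abhd5 (0.85 ± 0.22 (SE), adjusted p = 0.0905). At 0.1 mg/kg none of the 20 was called in either sex, against 0% of all probes.

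**Figure D5:**
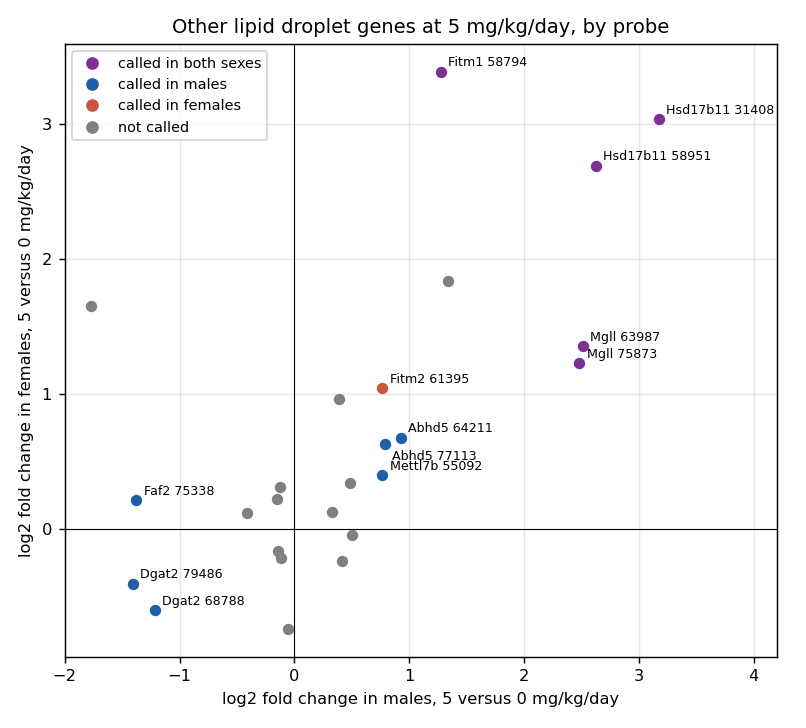
Log2 fold change at 5 mg/kg in males (x axis) against that in females (y axis) for the 25 probes of the other lipid droplet genes with more than 3 counts in each of the 4 groups, coloured by the sex in which a probe was called. Both Hsd17b11 probes lie at the upper right, Fitm1 at 1.27 and 3.39, Mgll to the right at 2.48 and 1.23, and the Dgat2 probes at the left.

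Plin2 was the only member whose most abundant probe was called at 5 mg/kg in both sexes, and probes like it over the 37 mice were found by Pearson's r of log2 CPM centred within each sex. Among the 3 with the highest r were Decr1_29509 (r = 0.923, Spearman's rho 0.861) and Hsd17b11_31408 (r = 0.915, rho 0.752). Decr1 encodes an enzyme of mitochondrial fatty acid oxidation. Within the 19 males r was 0.932 for Decr1 and 0.926 for Hsd17b11, and within the 18 females 0.911 and 0.905. These points share libraries, depth and dose groups, so r describes the pattern and has no test.

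Markers of other cell types were read beside these values. At 5 mg/kg, no tested gene was called in either sex among those of Kupffer cells or macrophages (5 of 5 tested), stellate cells or fibroblasts (5 of 5), endothelial cells (4 of 4), T or B cells (3 of 3), cholangiocytes (2 of 4), red cells (2 of 3) and adipocytes (1 of 7), and 1 of 5 hepatocyte genes was lower in each sex (Cps1 in males by -1.37, adjusted p = 0.00877, and Ttr in females by -0.69, adjusted p = 0.00345). Nearest to a call on the stellate list was Lrat_69123 in males, higher by 1.86 on the log2 scale (edgeR's quasi-likelihood test, adjusted p = 0.101). Lrat_29065 differed by 1.51 (0.169) in the same males. There the Col1a1 and Dcn probes were also higher, and the Des and Reln probes lower, none of them called. Cidea and Cidec are also genes of adipocytes. In the males at 5 mg/kg, 6 of the 7 adipocyte markers had no count (Adipoq, Lep, Retn, Cfd, Plin1 and Ucp1), and the other, Adrb3, was the sole source of a summed level of 4.79 to 13.1 CPM, against 2.46 to 20.2 in control males. In females the summed adipocyte level was 5.71 to 16.5 CPM in controls and 2.81 to 18.3 at 5 mg/kg.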

How the data were processed

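Livers of 40 mice were assayed, and the table used here holds 37. Per the labels and the study's methods, reads were demultiplexed with bcl2fastq 2.17.1.14, assigned to probes with Bowtie and counted per probe. The authors left out 3 mice whose depth or number of probes was low, and deposited raw counts, not normalized. The genome build is not given in the sources used here. Counts were analysed in R 4.3.3 with edgeR 4.0.16 (filterByExpr over 8 groups, TMM, glmQLFit, glmQLFTest, all 37 mice in 1 fit), and 18570 probes of 13004 genes were tested at an adjusted p under 0.10. The SE is the log2 fold change over the square root of F. All 37 columns were matched to mice by the labels. The probe of highest total count stood for each gene in ratios, which had 2-sided exact permutation tests. Intervals for counts of 0 cover counting error only.

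The 10 genes were named by symbol, all of their probes were accounted for, and the lists of other genes, markers and tests were chosen with earlier results of these data known. The other droplet genes named are those called at 5 mg/kg in either sex, and Spg20, called in males at 0.5 mg/kg and named after its values were seen. The test was tried on simulated data. Alternatives were DESeq2 1.42.0, its size factors used in edgeR, a robust fit, no filter or a minimum mean count of 10, fits by sex, probes summed per gene, an adjusted p under 0.05, leaving out libraries under 5000000 counts or each mouse in turn and, for ratios, a pseudocount of 1 in place of 0.5. Promoters are from RefSeq. The result of 1 gene is not reported here. Figures were drawn with matplotlib 3.10.9 in Python 3.11.15.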

Additional observations from a re-analysis of the deposited data

Results flagged for a closer look

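In 16 of the 106 combinations of probe and group that were examined, 1 mouse stood apart from the others of its group by Dixon's test at the 95% level. Chance alone flags about 1 group in 20, and in 12 of the 16 the mouse that stood apart was the highest of a group with at least 1 other mouse at 0.

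Of those among mice with counts, Plin4_60965 was at 19.1 CPM in female mouse 1 at 0.5 mg/kg, where the others were at 6.09 to 7 CPM. Pnpla2_69002 was at 10.7 CPM in male mouse 3 at 0.1 mg/kg, against 17.9 to 20.5 in the others. Hilpda_55937 was at 1.92 CPM in female mouse 4 at 0.1 mg/kg, against 0.261 to 0.468. Plin2_31642 was at 0 CPM in control female mouse 5, against 2.1 to 2.46 in the others.

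The remaining values stood above zeros or near-zeros. Control males held 1.68 CPM of Plin2_31642 in mouse 1, and 0.519 CPM of Hilpda_55937 and 0.259 CPM of G0s2_80846 in mouse 2. Cidea_59014 was at 0.187 CPM in control female mouse 3, at 0.312 in female mouse 2 at 0.1 mg/kg and at 0.51 in female mouse 4 at 5 mg/kg. Cidec_71717 was at 0.885 CPM in control female mouse 4, at 0.60 in female mouse 2 at 0.5 mg/kg, at 2.42 in male mouse 1 at 0.1 mg/kg and at 9.05 in male mouse 2 at 0.5 mg/kg. G0s2_80846 was at 0.781 CPM in female mouse 5 at 0.1 mg/kg and at 0.927 in male mouse 4 at 5 mg/kg.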

How the results depend on the processing

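The numbers of called probes at 5 mg/kg against controls, 6 in males and 3 in females, stayed within 1.5 times under all alternatives but 1: with each sex fitted apart, 5 were called in females. With a minimum mean count of 10, Cidea was not tested. DESeq2 also called 6 in males, with Plin4_60965, lower, in place of Cidea_59014. Between 5 and 0.5 mg/kg in males, 6 became 2 with each sex fitted apart and 3 without libraries under 5000000 counts, which leaves 2 males at 5 mg/kg. In males at 0.5 mg/kg, 1 became 2 with DESeq2, 2 without a filter and 0 with probes summed, and between 5 and 0.5 mg/kg in females 2 became 1 with probes summed, where a gene is 1 feature. Between control groups, 0 became 2 with DESeq2, 1 without a filter and 1 without libraries under 5000000 counts. Of single fold changes, Cideb_69793 in males turned to 0.0511 without libraries under 5000000 counts, and calls that single probes lost or gained are given with their genes, apart from G0s2_29985 between 5 and 0.5 mg/kg in females (called with each sex fitted apart, adjusted p = 0.0444), Cidec_63309 in males at 5 mg/kg (called without a filter, 0.0693) and, between controls, Plin4_60965 (0.0768 without a filter, 0.0412 without libraries under 5000000 counts) and Pnpla2_69002 (0.0427 without control female mouse 5). The cause of these changes was not tested.

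Leaving out 1 mouse at a time gave 0 to 2 called in males at 0.5 mg/kg, 3 to 6 in males between 5 and 0.5 mg/kg and 0 to 1 between controls. The log2 fold change of Plin2_78909 in females at 0.5 mg/kg ranged from -0.0647 to 0.344 and that of Cideb_69793 in females at 5 mg/kg from -0.0723 to 0.067. The difference in the G0s2 to Pnpla2 ratio ranged from -0.70 to 1.13 in males and from -1.74 to -0.865 in females at 0.1 mg/kg (adjusted p = 0.0952 without control female mouse 5), and that of Cidec to Cideb from -1.37 to 0.253 in males at 0.1 mg/kg and from -0.934 to 0.883 in females at 0.5 mg/kg. With probes summed, the G0s2 to Pnpla2 difference was 1.86 in males at 5 mg/kg (exact permutation test, adjusted p = 0.0952), that in males at 0.1 mg/kg was 0.175, and the Cidec to Cideb difference was 0.393 in males at 0.1 mg/kg and 0.456 in females at 0.5 mg/kg. Without libraries under 5000000 counts, the G0s2 to Pnpla2 difference in males at 0.1 mg/kg was 1.13.

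Over all probes, each sex fitted apart gave 343 higher and 702 lower in males at 5 mg/kg, against 782 and 1577, and 945 and 1109 in females, against 419 and 420. No paired analysis was possible because the labels give no replicate numbers, and mouse numbers only name the mice. Depth limits the male groups most: 2 of 4 males at 5 mg/kg had under 5000000 counts, and levels under 1.13 CPM could be missed there.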
